A study of Mus musculus with 6 samples.

Results

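The genes described here encode the proteasome, the protease complex that degrades ubiquitin-tagged proteins, in mouse embryonic stem (ES) cells. They were taken by symbol as every gene named Psma, Psmb, Psmc, Psmd, Psme, Psmf or Psmg followed by a number, without the immune subunits Psmb8, Psmb9 and Psmb10. This gave 44 genes of 18193 measured, and the brightest probe set by mean over the 6 arrays stands for each gene. RNA had been hybridised to Affymetrix mouse arrays, 1 array per sample, with 3 haploid and 3 diploid samples. The haploid lines were HAP1 at passage 24 and HAP2 at passage 21, both of F1 CBAxB6 background, and HTG1 at passage 11, of mixed transgenic background. The diploid controls were 3 male ES cell samples, of which replicates 1 and 2 were labelled 129Sv and replicate 3 was labelled 129. All 6 grew in 2i medium, which blocks the kinases MEK and GSK3, and RNA was taken on day 2 after passaging. Strain and ploidy thus differed together and cannot be told apart. The passage of the diploid samples is not given, so a part of passage cannot be told apart either. The labels do not say whether the diploid samples were separate lines, or what share of the cells of a haploid line was still haploid, so p-values measure the spread between these samples, which may in part be technical.

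Values are log2 probe set signals made by the authors with RMA, which sets all arrays to about one distribution. Any change in how much RNA a cell holds is therefore invisible, and in bulk RNA fewer cells of a type and less RNA per cell cannot be told apart. Array medians lay between 6.31 and 6.34. Of 8 ES cell markers 3 were higher in the haploid lines and none lower by the test used below, and their mean level was 13.0 to 13.2 in the haploid and 12.8 to 12.9 in the diploid arrays. Of 7 fibroblast markers 1 passed this test as lower in the haploid lines, the collagen gene Col1a2. The other 6 did not pass, with differences, haploid minus diploid, from -2.02 (Col3a1) to -0.03 (Thy1) on the log2 scale. The mean level of the fibroblast list was 5.35 to 5.63 in the haploid and 6.30 to 7.33 in the diploid arrays, highest in diploid replicate 1. The signal of the 3′ beta-actin control exceeded that of the 5′ control by 0.18 to 0.24 in the haploid and by 0.34 to 0.46 in the diploid arrays (log2). The part of these differences in the results below was not tested, except where a value is given.

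The proteasome consists of a barrel-shaped core and of caps that sit on its ends. The core is built of outer rings of alpha subunits and inner rings of beta subunits, and Psmb5, Psmb6 and Psmb7 carry its peptide-cutting sites. The regulatory cap binds ubiquitin chains, removes them and unfolds the substrate with a ring of ATPases, while other activators of the Psme family open the core without ubiquitin. The subunits are usually produced together, and the transcription factor Nfe2l1 raises their genes as a group when proteasome activity falls short. Proteasomes clear damaged proteins and cell cycle regulators, and ES cells are known for high proteasome activity.

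Across the complex most differences between the haploid lines and the diploid samples were small. Psmd10, Psmb7, Psma7 and Psmf1 were higher in the haploid lines, by 1.33-fold to 1.84-fold, and Psmc5, Psmb6 and Psmd3 were lower, by 1.29-fold to 1.54-fold. The median difference, haploid minus diploid, was -0.02 on the log2 scale over the 44 genes, against -0.03 over all genes and 0.04 over the genes above the median level, which held 43 of the 44. The median size of the difference without its sign was 0.18, against 0.26 for genes above the median level. The 95% confidence interval lay within 2-fold in either direction for 40 of the 44 genes (90.9%, against 82.5% of the genes above the median level). A gene is called higher or lower here when its limma p, adjusted by Benjamini-Hochberg over all 18193 genes, was under 0.05. By this measure 7 of the 44 were called (15.9%), against 14.9% of all genes and 21.9% of the genes above the median level. Of these, 4 were higher and 3 were lower in the haploid lines, where 7.92% of all genes were higher and 6.96% lower. The 3 haploid and 3 diploid values did not overlap for 22 of the 44 genes (50%), against 37.9% of all genes and 47.5% of the genes above the median level. Of the 22, the haploid lines were higher for 10 (17.7% of all genes) and lower for 12 (20.2% of all genes). Of the 9096 genes above the median level, 2382 were higher and 1943 lower without overlap. The count of called members moved with single arrays, as did the share of all genes called. It was 0 without diploid replicate 2, where 6.57% of all genes were called by limma. It was 1 without diploid replicate 3 (5.33% of all genes) and 1 when HAP2 was omitted (7.85%). It was 4 without HAP1 (13.3%), 5 without HTG1 (11%) and 7 without diploid replicate 1 (13%). An unadjusted limma p under 0.05 was reached by 14 of the 44 members with all arrays. It was reached by 31.2% of all genes and by 3718 of the 9096 genes above the median level. Without diploid replicate 2 it was reached by 11 members, and the share of all genes at that omission is not given.

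**Figure D1:**
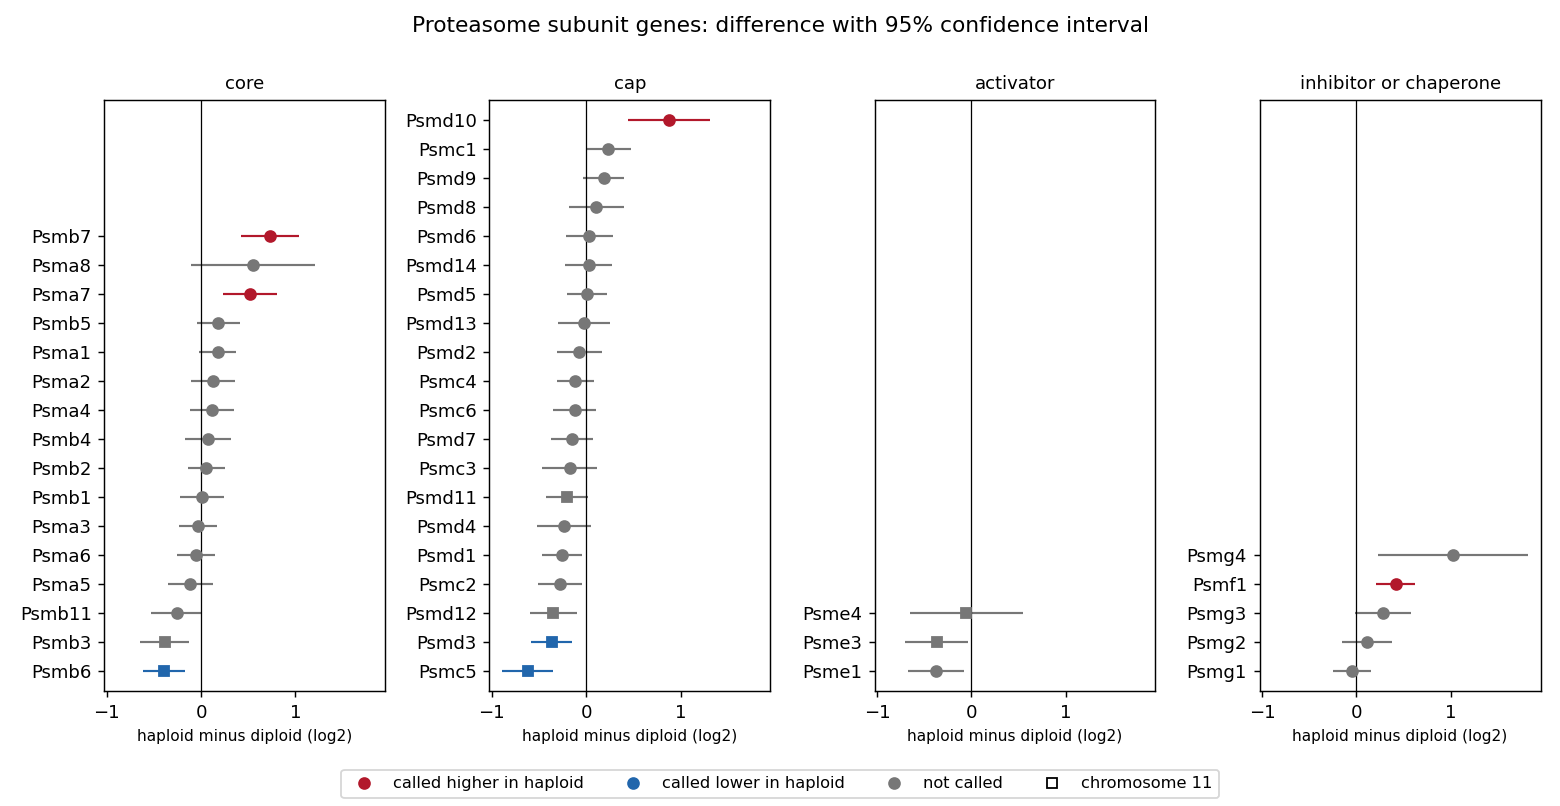
Haploid minus diploid difference of each of the 44 proteasome genes (x axis, log2) with its 95% confidence interval from limma, in 4 panels by part of the complex; squares are genes on chromosome 11. The 4 red genes were called higher and the 3 blue genes called lower in the haploid lines, and all 3 blue genes are squares.

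Of 16 core genes 2 rose (Psma7 and Psmb7), 1 fell (Psmb6) and 13 did not pass, with a median difference of 0.06 (log2). The share called was 18.8%, against 14.9% of all genes and 21.9% of the genes above the median level. The alpha subunit gene Psma7 stood at 12.65, 12.51 and 12.31 in HAP1, HAP2 and HTG1, against 12.10, 11.87 and 11.94 in diploid replicates 1 to 3. The groups did not overlap, and the fold was 1.44 (log2 difference 0.52 ± 0.12, SE, n = 3 arrays per group, limma adjusted p = 0.0311). The second of its probe sets rose by 0.45 (limma adjusted p = 0.0472 over all probe sets). Without HAP1, HAP2, diploid replicate 2 or diploid replicate 3, Psma7 did not pass (limma adjusted p = 0.0699 to 0.108).

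Of the 3 catalytic subunits 1 rose, 1 fell and 1 did not pass. Psmb7, which carries the trypsin-like site, stood at 12.42, 12.52 and 12.45 in HAP1, HAP2 and HTG1 and at 11.49, 11.76 and 11.94 in the diploid replicates. The haploid lines were close together and all above the diploid samples, which were more spread. It was 1.66-fold higher in the haploid lines (0.73 ± 0.13, limma adjusted p = 0.0139), and without diploid replicate 2 its limma adjusted p was 0.0505. Psmb6, which carries the caspase-like site, stood at 12.89, 12.84 and 12.75 in the haploid lines and at 13.13, 13.23 and 13.30 in the diploid samples. It was 1.31-fold lower in the haploid lines with no overlap (-0.39 ± 0.09, limma adjusted p = 0.0363). It passed without diploid replicate 1, but not without any one of the other 5 arrays (limma adjusted p = 0.0564 to 0.126). Psmb5, which carries the chymotrypsin-like site, stood at 12.72, 12.75 and 12.82 in the haploid lines, against 12.45, 12.63 and 12.66 in the diploid samples. The groups did not overlap, but the difference of 0.18 did not pass (95% confidence interval -0.05 to 0.42, limma adjusted p = 0.247).

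Psmb3, a structural beta subunit, had haploid values of 12.95, 12.91 and 12.64 against diploid values of 13.25, 13.17 and 13.23. The groups did not overlap, and by the brighter of its probe sets the difference was -0.39 ± 0.11 (limma adjusted p = 0.0588). Its other probe set gave -0.74 (limma adjusted p = 0.00903 over all probe sets). Psma8, an alpha subunit known from the testis, stood at 8.85, 9.68 and 9.99 in HAP1, HAP2 and HTG1, against 8.77, 9.07 and 9.03 in the diploid samples. The haploid lines were spread widely and HAP1 lay within the diploid range, and the difference of 0.55 ± 0.28 did not pass (limma adjusted p = 0.228), although it did without HAP1 (0.88, limma adjusted p = 0.0179). None of 3 testis germ cell markers passed, and their mean level was 6.60 to 7.32 in the haploid lines and 6.55 to 6.70 in the diploid samples. Psmb11, the thymus form of the Psmb5 subunit, had the dimmest probe set of the members, with values of 5.14 to 5.41 in the haploid lines and 5.43 to 5.64 in the diploid samples. It lay below the median of every array and did not pass (-0.26, limma adjusted p = 0.176). The other core genes, namely Psma1 to Psma6, Psmb1, Psmb2 and Psmb4, did not pass either, with differences from -0.11 (Psma5) to 0.18 (Psma1). Among them Psma3, the brightest member by mean signal, stood at 13.35, 13.44 and 13.33 in the haploid lines and at 13.39, 13.42 and 13.39 in the diploid samples.

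The 20 genes counted with the regulatory cap include 3 assembly chaperones, Psmd5, Psmd9 and Psmd10. Of the 20, 1 rose (the chaperone Psmd10), 2 fell (Psmc5 and Psmd3) and 17 did not pass. The share called was 15%, against 14.9% of all genes and 21.9% of the genes above the median level. Differences were above 0 for 7 cap genes and below 0 for 13 (65%), against 54.2% below 0 among all genes and 45.4% among those above the median level. All 3 chaperones lay above 0, while 5 of the 6 ATPase genes and 8 of the 11 non-ATPase genes lay below 0. The median difference was -0.12 (log2). It was -0.17 after a second quantile normalization and -0.15 without Psmd5, Psmd9 and Psmd10. It was -0.06 with the shift of each chromosome subtracted and close to 0 with the probe sets of each gene averaged. The shift is the median difference of the genes above the median level on a chromosome, minus that of all such autosomal genes.

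Within the ATPase ring Psmc5 fell 1.54-fold, the largest decrease among the 44 genes by either difference or p. Its values were 12.36, 12.19 and 12.07 in HAP1, HAP2 and HTG1, against 12.71, 12.83 and 12.94 in the diploid samples, with no overlap (-0.62 ± 0.11, limma adjusted p = 0.0153). It did not pass without HAP2, diploid replicate 2 or diploid replicate 3 (limma adjusted p = 0.0517 to 0.0675). The other 5 ATPase genes did not pass and ranged from -0.28 for Psmc2 to 0.23 for Psmc1.

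Among the non-ATPase subunits Psmd3 had haploid values of 11.39, 11.46 and 11.43 and diploid values of 11.70, 11.78 and 11.88. It was 1.29-fold lower in the haploid lines with no overlap (-0.36 ± 0.09, limma adjusted p = 0.0406), and it missed the threshold when any one array other than diploid replicate 1 was left out (limma adjusted p = 0.0848 to 0.136). Psmd12, another scaffold subunit of the cap's lid, stood at 12.07, 11.96 and 11.81 in the haploid lines, against 12.23, 12.27 and 12.37 in the diploid samples. The groups did not overlap, and the difference of -0.35 ± 0.10 did not pass (limma adjusted p = 0.0688). The deubiquitinase Psmd14, which cuts ubiquitin chains off the substrate, stood at 12.87, 12.94 and 12.76 in the haploid lines and at 12.69, 12.92 and 12.89 in the diploid samples. The groups overlapped, and the difference was 0.03 (95% confidence interval -0.22 to 0.27, limma adjusted p = 0.889). The subunit Psmd2, which docks ubiquitin-like domains, differed by -0.07 (-0.31 to 0.17, limma adjusted p = 0.673), and the ubiquitin receptor Psmd4 by -0.23 (-0.52 to 0.06, limma adjusted p = 0.245). The intervals give the differences that these data leave possible for the 3 genes. The other non-ATPase genes, Psmd1, Psmd6, Psmd7, Psmd8, Psmd11 and Psmd13, did not pass and ranged from -0.26 (Psmd1) to 0.11 (Psmd8).

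Psmd10, which encodes gankyrin, an ankyrin-repeat chaperone that helps to assemble the cap and is not part of the finished complex, rose the most of the called genes. It stood at 10.91, 10.82 and 10.46 in HAP1, HAP2 and HTG1 and at 10.18, 9.65 and 9.71 in the diploid samples. The haploid lines lay above all diploid samples, with the smallest gap between HTG1 and diploid replicate 1, and the fold was 1.84 (0.88 ± 0.18, limma adjusted p = 0.0227). It did not pass without HAP1, HAP2, diploid replicate 2 or diploid replicate 3 (limma adjusted p = 0.0541 to 0.0920). Its only probe set is of a kind that may match several transcripts of the gene. The other cap chaperones, Psmd5 (0.01) and Psmd9 (0.19), did not pass.

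**Figure D2:**
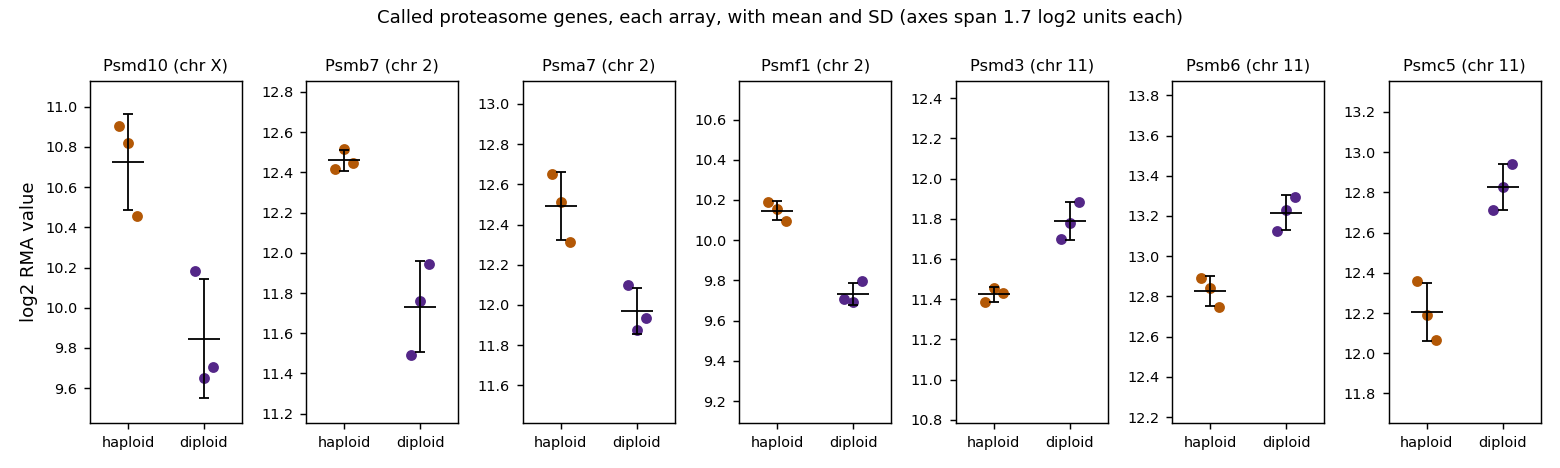
Log2 RMA value of the 7 called proteasome genes in each array (points), haploid left and diploid right, with group mean and SD (bars, n = 3); all panels span the same number of log2 units. Psmd10, Psmb7, Psma7 and Psmf1 were higher and Psmd3, Psmb6 and Psmc5 lower in the haploid lines, with no overlap between the groups in any panel.

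None of the 3 measured activators passed, and all 3 had differences below 0, against 54.2% of all genes and 45.4% of those above the median level. Their median difference was -0.36 (log2). With the shift of each chromosome subtracted it was -0.07 (Psme1 -0.36, Psme3 -0.07 and Psme4 0.24). An unadjusted limma p under 0.05 was reached by 2 of the 3, Psme1 and Psme3, against 31.2% of all genes. Psme1, a subunit of the interferon-inducible activator, stood at 11.29, 11.22 and 11.25 in the haploid lines and at 11.87, 11.47 and 11.54 in the diploid samples. The groups did not overlap and diploid replicate 1, which also had the highest mean of the fibroblast markers, was the highest (-0.37 ± 0.13, limma adjusted p = 0.0926). A link between Psme1 and these markers was not tested. Psme3, the nuclear activator, stood at 9.47, 9.40 and 9.02 in HAP1, HAP2 and HTG1, against 9.53, 9.69 and 9.76 in the diploid samples. The groups were separated by a small gap (-0.36 ± 0.14, limma adjusted p = 0.132). Psme4, the large activator that is known for its part in histone degradation, stood at 12.32, 13.39 and 13.05 in the haploid lines and at 12.86, 13.04 and 13.02 in the diploid samples. HAP1 was below every diploid sample, HAP2 and, by a small margin, HTG1 were above them all, and the difference was -0.05 ± 0.25 (limma adjusted p = 0.909). Without HAP1 it was 0.25 (limma adjusted p = 0.293), and the mean of its probe sets gave 0.32. The probe set of Psme2 carries several symbols and was not analysed here.

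Among the inhibitor and the chaperones of core assembly, 1 of 5 genes rose and none fell. The share called was 20%, against 14.9% of all genes and 21.9% of the genes above the median level. Psmf1, an inhibitor of the core in the test tube that also binds the F-box protein Fbxo7, stood at 10.19, 10.16 and 10.09 in the haploid lines, against 9.71, 9.69 and 9.80 in the diploid samples. Both groups were tight and did not overlap, and the fold was 1.33 (0.42 ± 0.09, limma adjusted p = 0.0234). Averaging its 4 probe sets left 0.18 (limma adjusted p = 0.252), and it also missed the threshold without HAP1, HAP2, diploid replicate 2 or diploid replicate 3 (limma adjusted p = 0.0579 to 0.0826). The chaperone Psmg4 had the largest difference of all members, at 1.02 ± 0.34, but did not pass (limma adjusted p = 0.0872). It stood at 10.06, 11.51 and 10.44 in HAP1, HAP2 and HTG1 and at 9.58, 9.63 and 9.74 in the diploid samples. HAP2 was set apart, and the difference was 0.60 without it. Without HAP1 it passed (limma adjusted p = 0.0363). The other chaperones Psmg1 (-0.04), Psmg2 (0.11) and Psmg3 (0.28) did not pass.

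The promoters of 4 called genes are shown so that those of genes that rose and of genes that fell can be compared. For each direction they are the 2 most changed genes with an entry in the RefSeq table, on build GRCm38.p6, each from 250 bases before to 50 bases after the gene's start. Capitals mark matches, on either strand, to 1 of 4 motifs: TGACNNNGC, the element bound by Nfe2l1 and Nfe2l2; CCAAT, the CCAAT box; CCGGAAG, an ETS site; and the palindrome bound by the nuclear respiratory factor, spelled out in the Psmc5 window. No 2 matches overlapped.
Psmd10, higher, chrX:140956662-140956961, minus strand: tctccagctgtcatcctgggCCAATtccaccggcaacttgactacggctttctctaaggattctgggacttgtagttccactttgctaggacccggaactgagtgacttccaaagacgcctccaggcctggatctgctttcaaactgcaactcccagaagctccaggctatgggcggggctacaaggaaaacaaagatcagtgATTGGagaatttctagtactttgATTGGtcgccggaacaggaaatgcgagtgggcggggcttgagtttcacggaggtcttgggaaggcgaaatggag
Psma7, higher, chr2:180042415-180042714, minus strand: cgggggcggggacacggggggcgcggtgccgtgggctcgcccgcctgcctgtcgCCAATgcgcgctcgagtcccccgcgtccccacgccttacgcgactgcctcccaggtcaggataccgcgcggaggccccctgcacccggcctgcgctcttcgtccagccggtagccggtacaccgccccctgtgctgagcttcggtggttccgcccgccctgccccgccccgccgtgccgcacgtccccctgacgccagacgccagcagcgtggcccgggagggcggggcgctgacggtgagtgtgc
Psmc5, lower, chr11:106255935-106256234, plus strand: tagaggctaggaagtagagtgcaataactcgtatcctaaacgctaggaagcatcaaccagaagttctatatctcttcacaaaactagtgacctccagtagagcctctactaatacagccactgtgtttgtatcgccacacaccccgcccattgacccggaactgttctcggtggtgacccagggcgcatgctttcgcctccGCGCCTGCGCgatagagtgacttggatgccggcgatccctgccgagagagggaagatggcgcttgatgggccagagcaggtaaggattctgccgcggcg
Psmb6, lower, chr11:70525107-70525406, plus strand: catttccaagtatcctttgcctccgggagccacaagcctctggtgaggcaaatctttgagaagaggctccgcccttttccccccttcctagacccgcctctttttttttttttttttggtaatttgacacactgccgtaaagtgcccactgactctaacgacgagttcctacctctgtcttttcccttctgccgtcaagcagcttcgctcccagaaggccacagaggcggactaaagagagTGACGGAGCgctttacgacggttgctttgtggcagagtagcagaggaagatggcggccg
The Psmd10 window held 3 CCAAT boxes and the Psma7 window 1. The Psmc5 window held 1 nuclear respiratory factor motif and the Psmb6 window 1 Nfe2l1 element. Of the 44 members 36 had a window. The Nfe2l1 element was found in 6 of the 36 (16.7%), namely Psmb5, Psmb6, Psmc6, Psmd12, Psmd9 and Psme4, against 12.4% of all 32851 windows and 13.0% of the 21263 windows of protein-coding genes. The CCAAT box was found in 13 of the 36 (36.1%, against 37.4% of all windows and 38.2% of coding ones). The ETS site was found in 14 (38.9%, against 8.9% and 11.6%), among them none of the 5 called genes with a window. The nuclear respiratory factor motif was found in 7 (19.4%, against 4.6% and 6.4%). A match is a stretch of letters and was not tested as a binding site.

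The members that fell shared a chromosome. By RefSeq annotation 8 of the 44 genes lie on chromosome 11: Psme4, Psmb6, Psmd11, Psmb3, Psmd3, Psme3, Psmc5 and Psmd12. All 8 had differences below 0, from -0.62 (Psmc5) to -0.05 (Psme4), with a median of -0.36, and Psme4 turned to 0.25 without HAP1. For 7 of them, all but Psme4, every haploid value was below every diploid value, against 20.2% of all genes and 52.8% of the other genes above the median level on chromosome 11. Of the 8, 3 were called lower (37.5%), against 30.1% of those other chromosome 11 genes. Those 784 genes had a median difference of -0.27, and 76.4% of them lay below 0. The members on this chromosome thus had the sign that most of its bright genes had.

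**Figure D3:**
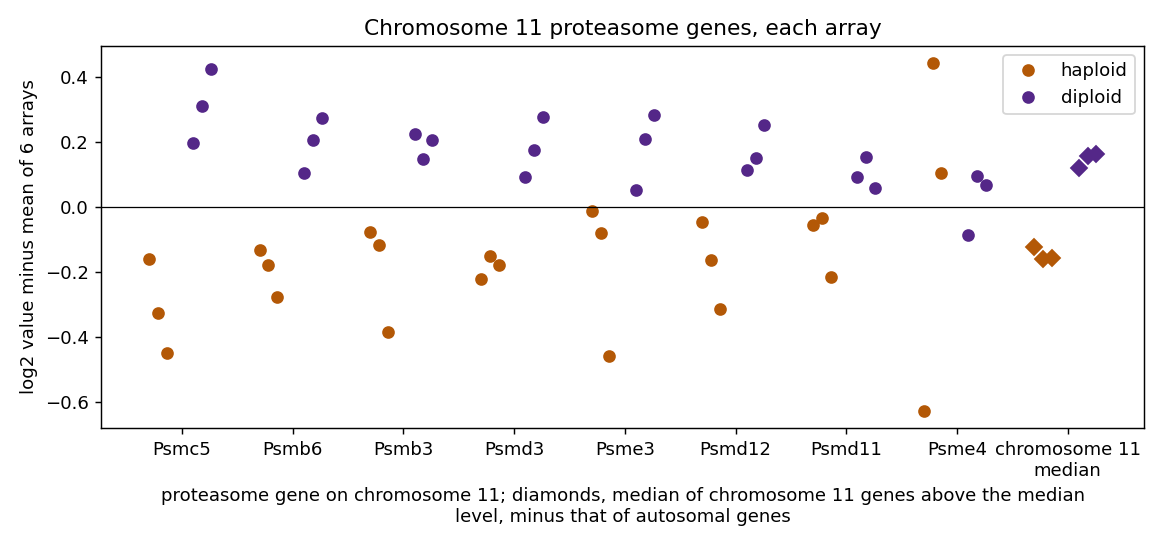
Log2 value of the 8 proteasome genes on chromosome 11 in each array, minus the gene's mean over 6 arrays, haploid left and diploid right; diamonds give the median of chromosome 11 genes above the median level, minus that of autosomal genes. The haploid points lie below the diploid points for every gene but Psme4, and the chromosome's own median stands at -0.12 to -0.16 in the haploid and 0.12 to 0.16 in the diploid arrays.

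With the median shift of each chromosome subtracted, -0.30 for chromosome 11 and 0.74 for X, 3 of the 44 genes were called, all on chromosome 2: Psmb7, Psma7 and Psmf1. At this setting 14.3% of all genes were called. The 3 members were higher, as 6.99% of all genes were, and none was called lower by limma, against 7.35% of all genes. An unadjusted limma p under 0.05 was reached by 4 members that were lower, and the share of all genes at that p is not given for this setting. With no shift subtracted, 9 members and 15.8% of all genes were lower at that p. Psmc5 changed to -0.32 (limma adjusted p = 0.1001), Psmb6 to -0.09 (0.522) and Psmd3 to -0.07 (0.638). The only X-linked member, Psmd10, changed to 0.14 (limma adjusted p = 0.629). Over the 8 chromosome 11 genes the median became -0.07, with 2 above and 6 below 0. Off chromosome 11, 4 of 36 members were called (11.1%, against 14.9% of all genes and 21.9% of those above the median level), and the median difference of the 36 was 0.03. The 3 on chromosome 2 were among 6 members there, whose median was 0.22, while chromosome 2 itself was shifted by 0.05. With no shift subtracted, 13% of the 725 genes above the median level on chromosome 2 were called higher and 5.1% lower. Psmd7, the only member on chromosome 8, whose shift was -0.35, differed by -0.15 (limma adjusted p = 0.329).

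**Figure D4:**
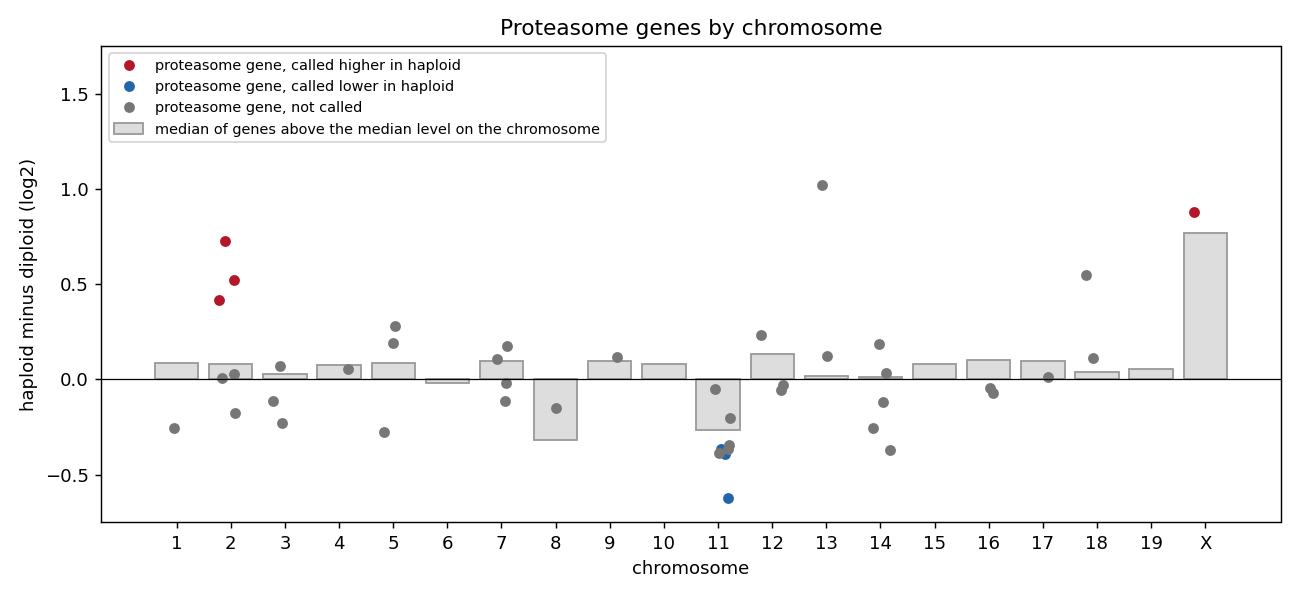
Haploid minus diploid difference (y axis, log2) of the proteasome genes (points, coloured by call) by chromosome; bars give the median difference of genes above the median level on each chromosome, which include the members. The bar of chromosome 11 stands at -0.27, with Psme4 and Psmd11 above it and the other members there below it, Psmd10 lies just above the X bar, and the 3 called genes on chromosome 2 lie well above theirs.

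Among the haploid lines HTG1 differs in background and passage from HAP1 and HAP2, and its proteasome genes were set against theirs in a fit with the diploid samples as a group of their own. No member was called by limma (0.374% of all genes were), and 1, Psme3, had an unadjusted limma p under 0.05 (-0.41 ± 0.15), as 9.17% of all genes had. The differences, HTG1 minus the mean of HAP1 and HAP2, were below 0 for 37 of the 44 members (84.1%), against 51.1% of the genes above the median level. Their median was -0.09, against -0.01 for the genes above the median level. As HTG1 is a single array, its spread was assumed to be like that of the other groups. The largest difference above 0 was that of Psma8, at 0.73 ± 0.33 (limma adjusted p = 0.602).

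Several members were read by more than 1 probe set, and these did not always agree in direction. Of 25 such members 17 had probe sets with opposite signs and 1, Psmg4, had probe sets over 1 (log2) apart, at 1.02 and a dim one at -0.01. Among probe sets above the median level, 6 of 17 members had opposite signs. Psmc6 had -0.12 by its brightest probe set and 0.34 and 0.62 by the other two, and the last passed (limma adjusted p = 0.0220 over all probe sets). Psmd4 had -0.23 and -0.18 by its bright probe sets and 0.38 by a dimmer one, which passed as well (0.0469). Psmd7 had -0.15 and 0.29, Psme4 -0.05, 0.23 and -0.16, Psmf1 0.42 and -0.0013, and Psmb4 0.07 and -0.0025. The other members with opposite signs had them only by a dim probe set, whose value was 0.54 for Psma3, 0.05 for Psma5, 0.37 for Psma6, -0.14 for Psmc1, 0.15 for Psmc2, 0.23 for Psmd2 and -0.15 for Psmg2. Psmd13 had 0.17 and 0.09, and Psmd11 0.13 and 0.04, by dim probe sets of the opposite sign. For Psmb1 the dim probe set gave -0.76 and passed (0.00567), while both bright ones were above 0, at 0.01 and 0.19. On chromosome 11 the 4 bright probe sets of Psmd11 had 1 direction, from -0.49 to -0.20, and 2 of them passed (0.0229 and 0.0333), although the brightest did not. Taken on their own, 17 of the 96 probe sets of the members passed, 9 higher and 8 lower, against 13.4% of all probe sets.

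Genes that work with the proteasome were read from a list of 36, of which 27 had a measured gene. Of these 2 rose and 2 fell (4 of 27, 14.8%, against 14.9% of all genes), and the median difference was 0.02. Omitting diploid replicate 2 left 2 called and omitting diploid replicate 3 left 1, while 6.57% and 5.33% of all genes were called. The largest change was that of Psmb10, an inducible catalytic subunit of the immunoproteasome, which stood at 8.38, 7.82 and 7.70 in the haploid lines and at 9.71, 9.30 and 9.35 in the diploid samples. It fell 2.80-fold (-1.49 ± 0.20, limma adjusted p = 0.00571) and passed whichever single array was left out. It lies on chromosome 8 and passed with the shift of that chromosome subtracted (-1.14, limma adjusted p = 0.0145). Diploid replicate 1, which had the highest mean of the fibroblast markers, was the highest for Psmb10. The partners of Psmb10, namely Psmb8 (-0.74, limma adjusted p = 0.0937) and Psmb9 (-0.16, 0.375), did not pass and were dimmer than the median gene in both groups. In diploid replicates 1 to 3 Psmb8 stood at 5.93, 6.78 and 5.94, highest in replicate 2. Psmb9 stood at 7.17, 6.95 and 6.96, highest in replicate 1. The part of fibroblasts in these values was not tested. With its probe sets averaged Psmb8 passed (-0.55, limma adjusted p = 0.0348). Of genes whose products bind the cap, Sem1 (0.08) and the deubiquitinases Uchl5 (-0.14) and Usp14 (0.29) did not pass.

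Ubqln2, a shuttle factor that brings ubiquitinated proteins to the proteasome and is X-linked, stood at 12.08, 11.95 and 12.22 in the haploid lines and at 11.32, 11.60 and 11.36 in the diploid samples. All haploid values were above all diploid ones, and it rose 1.58-fold (0.66 ± 0.12, limma adjusted p = 0.0143). With the shift of the X chromosome subtracted it was at -0.08. It did not pass without diploid replicate 3 (limma adjusted p = 0.0665) or with its probe sets averaged (0.23, limma adjusted p = 0.115). Its relative Ubqln4, on chromosome 3, stood at 11.002, 11.0015 and 11.4458 in the haploid lines and at 10.54, 10.53 and 10.47 in the diploid samples, a rise of 1.56-fold (0.64 ± 0.14, limma adjusted p = 0.0260) that missed the threshold when any single diploid replicate was omitted (limma adjusted p = 0.0546 to 0.0977). Fbxo7, the binding partner of Psmf1, fell 1.36-fold (-0.44 ± 0.09, limma adjusted p = 0.0224). It stood at 9.36, 9.24 and 9.21 in the haploid lines and at 9.65, 9.75 and 9.73 in the diploid samples, and did not pass without HAP2, HTG1, diploid replicate 2 or diploid replicate 3 (limma adjusted p = 0.0582 to 0.0863). Nfe2l1 itself, on chromosome 11, stood at 11.02, 10.90 and 10.74 in the haploid lines and at 11.19, 11.33 and 11.28 in the diploid samples. The groups did not overlap, and the difference of -0.38 ± 0.11 was close to the threshold (limma adjusted p = 0.0540, and 0.0279 to 0.0479 under 6 other settings). It was -0.09 with the shift of chromosome 11 subtracted (limma adjusted p = 0.601). Nfe2l1 passed without HAP1 (limma adjusted p = 0.0497), but not when any other single array was left out (limma adjusted p = 0.0714 to 0.154). The assembly factor Pomp differed by 0.01 (95% confidence interval -0.25 to 0.28, limma adjusted p = 0.956).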

How the data were processed

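Deposited values were log2 signals of probe sets, computed by the authors with RMA, per the submitters' processing notes; software, version and settings are not given in the sources used here. They spanned 2.62 to 15.2 over 45101 probe sets, of which 64 controls were left out. Platform annotation gave 34945 probe sets 1 symbol, 932 several and 9160 none, and only the first were used. The brightest probe set of each symbol gave 18193 genes, and chromosomes came from RefSeq (GRCm38.p6). The test was a moderated linear model in limma (version 3.58.1, run under R 4.3.3; two-sided, without covariates or filters) of haploid against diploid arrays, with Benjamini-Hochberg adjustment over all genes, and the steps were tested on simulated data. The number of arrays limits the precision. Chromosome shifts are medians over genes above the median level, relative to autosomal genes.

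The members, lists, tests and alternatives were chosen with earlier results of these data known. The text names called members without overlap, the catalytic, activator, inhibitor, X-linked and ubiquitin-handling subunits, the brightest and dimmest member, members whose probe sets disagree, called related genes, Nfe2l1, Pomp and the immune subunits. Psma8, Psmb3, Psmd12 and other genes outside this rule were chosen after their values were seen.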

Additional observations from a re-analysis of the deposited data

How the results depend on the processing

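The alternatives were array medians aligned, a second quantile normalization, restriction to genes above the median level, averaging over probe sets, omission of probe sets that may match several transcripts, other eBayes settings, array weights, subtraction of chromosome shifts and omission of chromosomes or single arrays. The 7 called members (14.9% of all genes called) numbered 11 with array weights (20.9% of all genes), 3 with chromosome shifts subtracted (14.3%), 3 of 34 without chromosomes 8, 11, X and Y (10.8%), 17 probe sets taken singly (13.4%), 14 at an unadjusted p under 0.05 (31.2%) and 0 to 7 when 1 array was left out (5.33% to 13.3%). The 4 higher calls (7.92%) numbered 9 over single probe sets (7.04%) and 0 to 4 with 1 array left out (3.14% to 7.67%). The 3 lower calls (6.96%) numbered 5 after quantile normalization, among genes above the median level, without probe sets that may match several transcripts and with other eBayes settings (6.21% to 11.3% of all genes). They numbered 6 with array weights (9.9%), and 0 with chromosome shifts subtracted (7.35%) or those chromosomes left out (4.37%). They numbered 8 over single probe sets (6.38%) and 0 to 3 with 1 array left out (2.19% to 5.95%). At an unadjusted p under 0.05 the lower members numbered 9 (15.8%). At that p they numbered 4 with shifts subtracted and 3 with those chromosomes left out, where no share of all genes is given. The median over members was 0.045 without probe sets that may match several transcripts, and -0.03 to 0.00 with 1 array left out. Related genes called, 4 of 27 in the main fit (14.9% of all genes), numbered 7 with probe sets averaged (14%) and 1 to 5 with 1 array left out (5.33% to 13.3%).

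Of differences that did not pass, some changed sign. Psme4 became 0.32 with the mean of its probe sets, 0.23 without probe sets that may match several transcripts, 0.24 with chromosome shifts subtracted and -0.29 to 0.25 with 1 array left out. Psmd14 became -0.016 after quantile normalization, -0.025 with shifts subtracted and -0.045 to 0.074 with 1 array left out. Pomp became -0.049, -0.044 and -0.048 to 0.10 under the same settings. Psmd2 became 0.079 and Psma3 0.26 with the mean of their probe sets, and Psma3 0.54 without probe sets that may match several transcripts. The called Ubqln2 became -0.080 with the X shift subtracted. No called member changed sign under the settings run. Psmb3 and Psmd12 passed after quantile normalization, among genes above the median level, with other eBayes settings and with array weights. The cause of these changes was not tested, except that leaving out an array or a chromosome also leaves fewer samples or genes. No paired analysis was possible, because the haploid lines and the diploid samples are of different strains and the labels pair none of them.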
